A study of Mus musculus with 12 samples.

Results

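The nephron transcription factors described here are Hnf4a, Hnf4g, Pax2, Pax8, Tfap2b, Tfcp2l1, Esrrb and Irx1. They were taken as a list of named genes, and all 8 were found among the 46095 gene symbols of the count table and among the 17530 genes tested. RNA-seq libraries were made from renal cortex of mice, with 4 libraries per group and 3 groups. DN+NaB libraries came from mice with diabetic nephropathy given sodium butyrate (NaB), the salt of a fatty acid that gut microbes produce and an inhibitor of histone deacetylases. DN libraries came from mice with diabetic nephropathy without it, and NC libraries from normal controls. All groups carry the strain label C57BL/6 and an age of 12 weeks. The labels used here do not tell how diabetes was induced or the dose, route and duration of butyrate, nor which animal gave which library. The p-values therefore speak only of how these libraries vary, which may be partly technical.

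Nephron segments keep their identity through transcription factors that act in a few segments or along the whole tubule. HNF4A, a nuclear receptor, is needed for the mature proximal tubule, where it switches on transporter and metabolic genes, and HNF4G is its close relative. PAX2 and PAX8 are paired-box factors that build the kidney in the embryo and stay on in adult tubules. Further along, the AP-2 factor TFAP2B is needed for the distal convoluted tubule, TFCP2L1 for the acid-handling intercalated cells of the collecting duct, and the orphan nuclear receptor ESRRB and the Iroquois homeobox factor IRX1 are found in the loop of Henle and distal tubule.

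Total counts per library ran from 58394975 to 70674015. The extraction protocol names a brain region, against the tissue label, so brain markers were looked at: Snap25 was at 0 counts in every library (a count of 0 allows up to 3), and the 2 tested of 5 brain markers summed to 0.115 to 0.348 CPM (counts scaled to library size with TMM factors) in DN+NaB, 0.0880 to 0.318 in DN and 0.248 to 0.499 in NC. The 12 markers of the proximal convoluted tubule summed to 30465 to 39804 CPM in DN+NaB, 22604 to 35775 in DN and 24975 to 29504 in NC. Of the libraries, 2 stood apart from their groups most often. NC replicate 4 lay far from the rest of its group in 5.80% of tested genes and DN replicate 4 in 3.17%, against 0.633% to 2.13% for the other libraries, and calls of the 8 factors that change without either are given with and without it.

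Irx1 was the only 1 of the 8 factors called against NC in both diseased groups, and its similarity to its neighbour Irx2 bears on how reads could be assigned to the pair. In the GENCODE M21 annotation they are neighbouring protein-coding genes on chromosome 13, on opposite strands, followed by Irx4. Their most similar stretch of 90 coding bases, inside the homeobox that encodes the DNA-binding domain, matches at 87 positions, and the 3 mismatches are in capitals. It spans coding bases 424 to 513 of Irx1 and 388 to 477 of Irx2.
Irx1: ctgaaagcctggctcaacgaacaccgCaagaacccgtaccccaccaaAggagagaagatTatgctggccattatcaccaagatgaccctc
Irx2: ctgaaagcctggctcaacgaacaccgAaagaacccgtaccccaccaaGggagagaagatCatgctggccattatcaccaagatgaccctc
No stretch of 50 bases was identical between any Irx1 transcript and any transcript of Irx2 or Irx3. The same held for Hnf4a with Hnf4g, Pax2 with Pax8, Tfap2b with Tfap2a, Tfcp2l1 with Tfcp2, and Esrrb with Esrrg or Esrra. The sources used here give neither the read length nor how multiple matches were treated.

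RefSeq promoters (GRCm38.p6, 250 bases before to 50 after the start) were found for 6 of the 8 genes, with 10 entries, and not for Hnf4g and Irx1. Of the 3 entries of Pax2, the gene whose DN+NaB and DN libraries did not overlap, 1 is shown, since it holds the letters GCCNNNGGC of the AP-2 factors, the family of Tfap2b. All motifs here were searched on both strands. The entry lies on the plus strand at chr19:44755502-44755801, and the capitals mark the matches, which begin 108 bases before and 41 after the start.
Pax2: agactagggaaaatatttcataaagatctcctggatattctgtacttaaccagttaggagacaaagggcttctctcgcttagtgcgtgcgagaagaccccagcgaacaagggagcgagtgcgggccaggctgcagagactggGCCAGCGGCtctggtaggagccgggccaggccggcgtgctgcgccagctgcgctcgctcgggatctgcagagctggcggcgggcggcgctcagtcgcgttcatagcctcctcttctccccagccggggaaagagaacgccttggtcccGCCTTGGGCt
The AP-2 letters were in 2 of the 10 entries, 1 of Tfcp2l1 and 1 of Pax2, against 16.6% of all 32851 promoter entries. The letters CAAAGTCCA of HNF4, AAGGTCA of the ERR receptors and GCGTGAC of PAX2 and PAX8 were in 0 of the 10, against 0.475%, 4.72% and 2.09% of all entries. A match describes the letters and is not a shown binding site.

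Levels were compared between genes per length, as CPM per kilobase of merged GENCODE M21 exons. Hnf4a was the most abundant of the 8 in every group, at 358 ± 47.2 in DN+NaB, 355 ± 53.5 in DN and 294 ± 16.0 in NC (CPM per kilobase, mean ± SD, n = 4 each), and Tfcp2l1 was next at 70.1 ± 6.89, 72.5 ± 7.10 and 78.7 ± 8.47. In NC the next 3 were Irx1 at 31.0 ± 3.45, Esrrb at 26.6 ± 9.96 and Pax8 at 26.5 ± 2.83, whose ranges overlapped. In DN Pax8 at 31.8 ± 4.26 lay above Esrrb at 20.6 ± 1.99 and Irx1 at 14.6 ± 0.989, and these 3 ranges did not overlap. Irx1 at 14.6 ± 0.989 and Pax2 at 12.7 ± 2.0 overlapped in DN. Tfap2b and Hnf4g had the lowest levels in all groups, with Hnf4g at 1.61 ± 0.409 in DN+NaB, 1.99 ± 0.472 in DN and 2.20 ± 0.284 in NC.

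**Figure D1:**
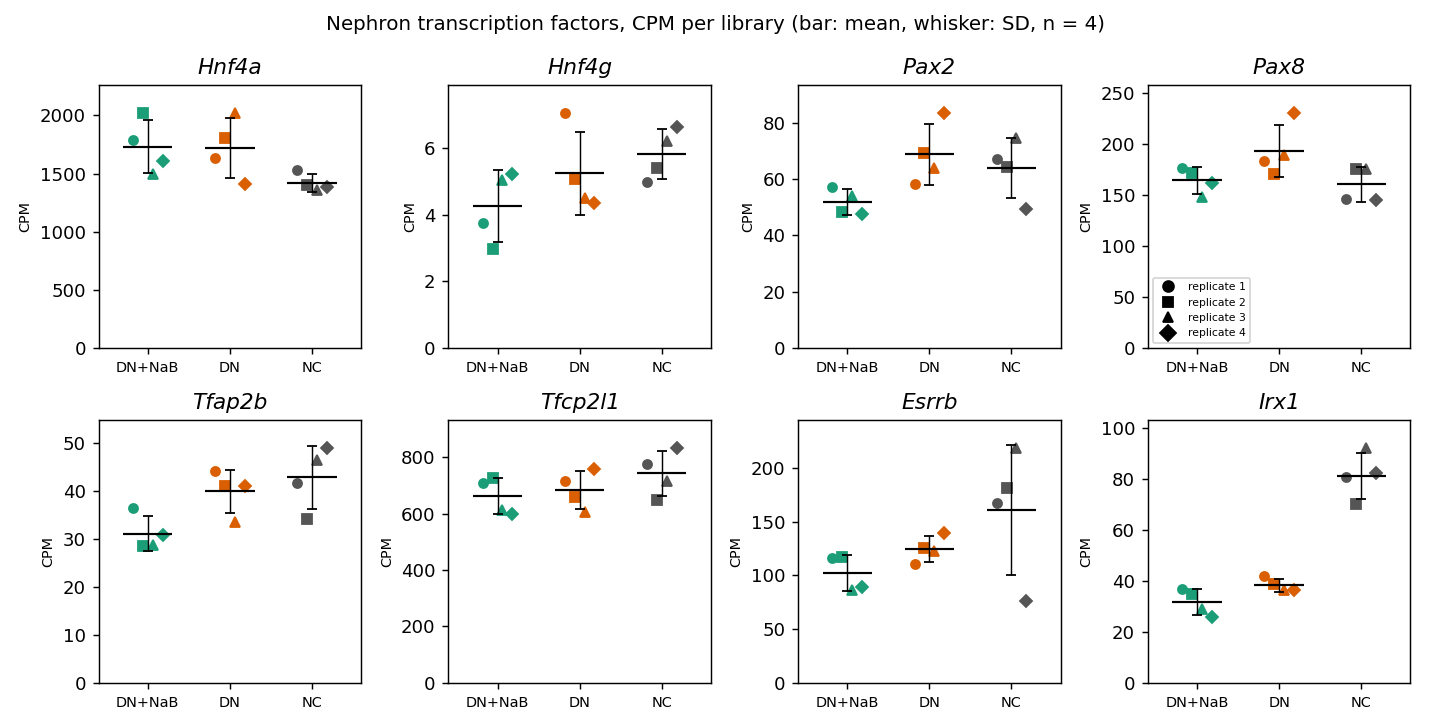
CPM of the 8 genes (vertical axes, linear, from 0) in each library of DN+NaB, DN and NC, with the mean as a bar and the SD as a whisker (n = 4 per group). Irx1 lies at 25.8 to 36.9 CPM in DN+NaB and 36.3 to 41.9 in DN, below 70.0 to 92.1 in NC, while for the other genes DN and NC overlap.

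The first comparison, DN against NC, asked which of these factors differ in the diseased cortex. Of the 8, 1 was called, Irx1, which fell, at a Benjamini-Hochberg adjusted p under 0.05 in edgeR's quasi-likelihood test. Over all tested genes 8.23% were called in this comparison, so 1 of 8 is near that background. The groups did not overlap for 1 of the 8, again Irx1, against 13.3% of all genes. The median log2 fold change was -0.11 over the 8 genes and 0.01 over all genes.

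Irx1 had 41.9, 38.6, 36.5 and 36.3 CPM in DN replicates 1 to 4, and 80.7, 70.0, 92.1 and 82.1 CPM in NC replicates 1 to 4. Every DN library lay below every NC library, and the DN libraries were the closer together. The mean fell to 38.3 ± 2.59 CPM in DN, against 81.2 ± 9.05 in NC (log2 fold change -1.08 ± 0.13 SE, 95% interval -1.36 to -0.81, adjusted p = 0.000117). In bulk tissue fewer cells of a type and less RNA per cell cannot be told apart. Markers of the thick ascending limb, the salt-reabsorbing part of the loop of Henle, were lower too: the 10 markers summed to 5505 to 7605 CPM in DN and 7888 to 13508 in NC, 2 of them fell and 8 did not pass, with a median of -0.47 on the log2 scale. Umod, which encodes uromodulin, fell by 0.82 ± 0.20 and Egf, the epidermal growth factor gene, by 0.81 ± 0.18 (edgeR adjusted p = 0.0201 and 0.0118). The Umod call was lost in 4 of 16 alternatives, without DN replicate 1 or 2 or NC replicate 1 or 3 (adjusted p up to 0.0650), and Egf kept its call in all 16. Umod and Egf weigh most in the marker sum, with means of 5983 and 2995 CPM in NC. Of the 10 markers 9 had a log2 fold change below 0. Kcnj1 was nearly level, at 207 CPM in DN and 208 in NC, and Cldn10 was higher, at 108 and 95.2. Set against the mean log2 CPM of those markers in the same library, Irx1 was at -1.67 ± 0.293 in DN and -0.998 ± 0.299 in NC (SD, n = 4 each), with ranges of -2.01 to -1.40 and -1.24 to -0.586 that did not overlap. The difference of -0.67 on the log2 scale is smaller than the -1.08 of Irx1 alone. What part the markers' fall has in that of Irx1 was not tested.

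Irx2, the neighbour of Irx1, was at 11.0 to 13.4 CPM in DN and 14.4 to 20.2 CPM in NC. The groups did not overlap, but the gene did not pass the test over all genes (-0.56 ± 0.17, edgeR adjusted p = 0.0617). It passed in 4 of 16 alternatives, without DN replicate 4 (-0.65, adjusted p = 0.0332), with library size alone (0.0372), with a filter of 1 CPM in 4 libraries (0.0444) and with DESeq2 (0.0232). Among the 4 tested of 5 further Iroquois genes, which also included Irx3, Irx4 and Irx5, 0 were called by edgeR, 2 had an unadjusted p under 0.05 and DESeq2 called 1; all 4 had a log2 fold change below 0 (median -0.38). Irx3, from the other Iroquois gene cluster, differed by -0.11 ± 0.14 and Irx5 by -0.19 ± 0.20 (adjusted p = 0.720 and 0.662). Irx4 had only 1 to 19 counts per DN library and 15 to 37 per NC library, and Irx6 had 0 in all 12.

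**Figure D2:**
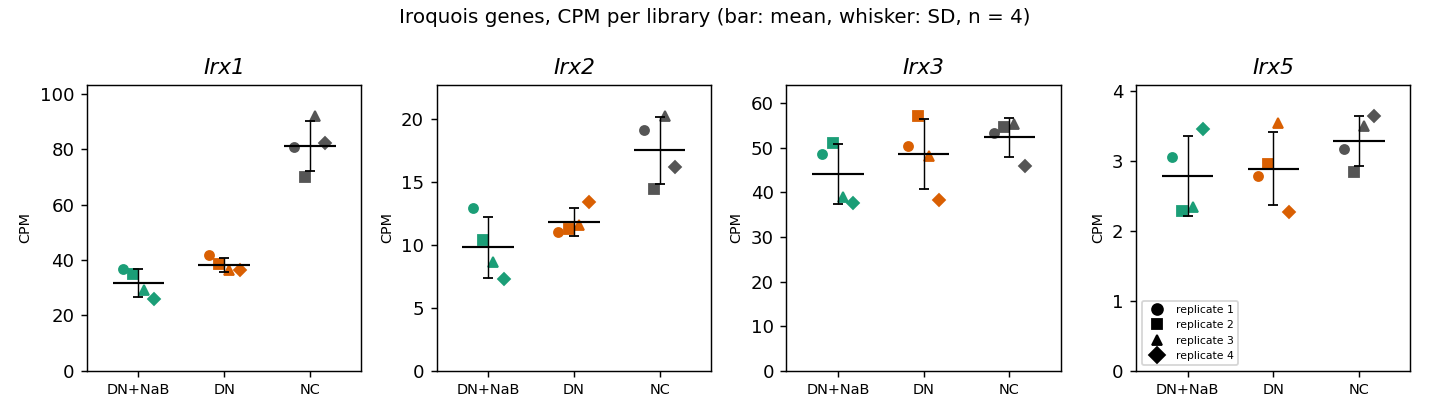
CPM of Irx1, Irx2, Irx3 and Irx5 (vertical axes, linear, from 0) in each library of DN+NaB, DN and NC, with the mean as a bar and the SD as a whisker (n = 4 per group). Irx1 and Irx2 are below NC in all 8 libraries of the diseased groups, whereas Irx3 and Irx5 overlap.

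Esrrb, the nuclear receptor better known from embryonic stem cells, moved with single control libraries. It had 110, 125, 123 and 140 CPM in DN replicates 1 to 4, and 167, 181, 219 and 76.5 CPM in NC replicates 1 to 4. The first 3 NC libraries lay above all DN libraries and NC replicate 4 below them. With all libraries the log2 fold change was -0.37 ± 0.24 (adjusted p = 0.414), and without NC replicate 4 it was -0.61 and passed the edgeR test (adjusted p = 0.0177). Without NC replicate 3, the highest, it was -0.18 (adjusted p = 0.736). Set against the thick ascending limb markers, Esrrb was at 0.03 ± 0.219 in DN and -0.11 ± 0.393 in NC, ranges that overlapped. Its relatives Esrrg and Esrra differed by -0.30 ± 0.14 and 0.13 ± 0.15 (edgeR adjusted p = 0.231 and 0.684). Of the 4 genes of the ERR family and its PGC-1 coactivators, 0 were called by edgeR or DESeq2 in any of the 3 comparisons, and the only unadjusted p under 0.05 was 0.0236, for Esrrg in DN+NaB against NC.

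The proximal tubule factors did not pass the test. Hnf4a had 1631, 1803, 2019 and 1410 CPM in DN replicates 1 to 4, and 1530, 1404, 1355 and 1385 CPM in NC replicates 1 to 4. DN replicates 1 to 3 lay above every NC library and DN replicate 4 within the NC range (0.27 ± 0.13, 95% interval -0.0061 to 0.55, adjusted p = 0.241). Hnf4g differed by -0.15 ± 0.21 (adjusted p = 0.758), and leaving out 1 library at a time gave -0.32 to -0.080, the first without DN replicate 1, which was the highest. The antisense gene Hnf4aos overlaps Hnf4a on the other strand; it had 129 to 331 counts in DN and 355 to 445 in NC, against 87342 or more counts of Hnf4a per DN library. Strand use in counting is not given, so reads of the pair cannot be told apart. Of 17 tested of 18 listed transport and metabolism genes of the proximal tubule, where HNF4A acts, 1 fell, 0 rose and 16 were not called (median 0.08). The gene that fell was Slc17a3, an organic anion and phosphate transporter (-0.94 ± 0.17, edgeR adjusted p = 0.00305). Of 12 convoluted tubule markers 2 rose, Slc7a7 and Slc2a2, both basolateral transporters, by 0.79 ± 0.15 and 0.75 ± 0.16. Of 8 markers of the straight S3 segment 6 fell and 1 rose (median -1.79). Any part of Hnf4a or Hnf4g in these marker values was not tested.

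Pax2, Pax8, Tfap2b and Tfcp2l1 were not called either. Pax8 had 170 to 230 CPM in DN and 145 to 175 CPM in NC, with 3 DN libraries above the highest NC library (0.27 ± 0.12, 95% interval 0.02 to 0.52, unadjusted p = 0.0376, edgeR adjusted p = 0.197). Without DN replicate 4, its highest library, the value was 0.15 (adjusted p = 0.356). The osmolyte and water channel genes listed as PAX8 targets had 0 of 8 called by edgeR (median 0.06), with 3 at an unadjusted p under 0.05 and 2 called by DESeq2. Pax2 differed by 0.11 ± 0.14, Tfap2b by -0.10 ± 0.13 and Tfcp2l1 by -0.12 ± 0.12 (adjusted p = 0.728, 0.729 and 0.619). For Tfcp2l1 the 95% interval of the log2 fold change, -0.37 to 0.13, leaves room for a modest change. Intercalated cell markers did change beside it: 4 of 9 fell, 1 rose and 4 were not called, with the receptor gene Insrr and the anion exchanger gene Slc26a4 down by 0.72 ± 0.15 and 0.72 ± 0.16. Of the distal convoluted tubule markers 1 of 8 was called: Pvalb, a calcium-binding protein, was at 92.1 to 200 CPM in DN and 12.9 to 25.2 CPM in NC (2.68 ± 0.26, edgeR adjusted p = 3.88e-05), while Tfap2b overlapped.

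**Figure D3:**
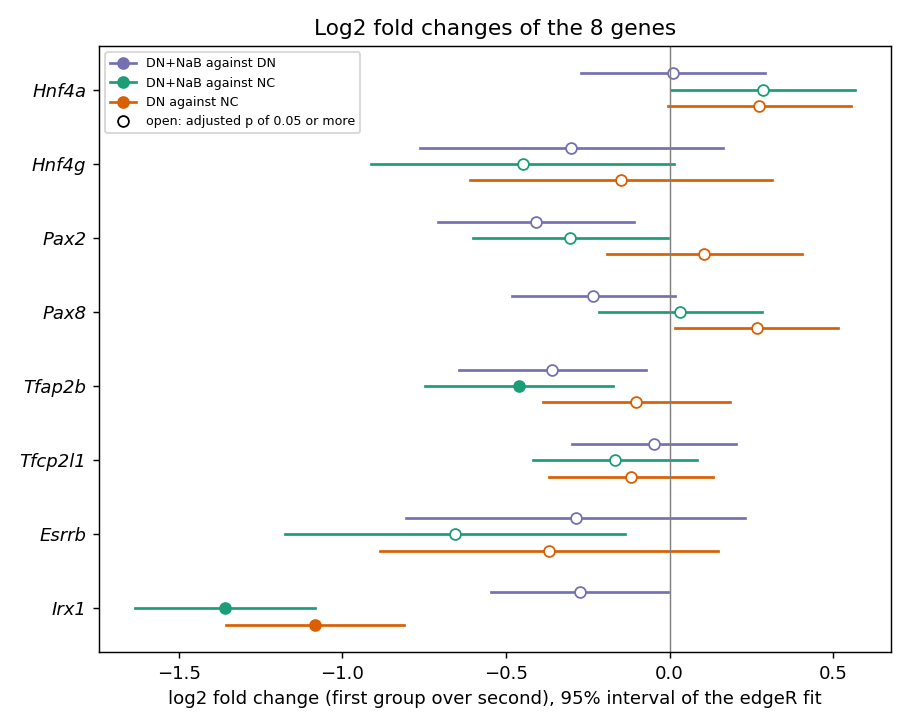
Log2 fold change (horizontal axis) of each gene in the 3 comparisons with its 95% interval from the edgeR fit over 12 libraries; filled points passed at an adjusted p under 0.05 and open points did not. Irx1 passed against NC in both diseased groups, at -1.36 for DN+NaB and -1.08 for DN, and Tfap2b passed for DN+NaB against NC at -0.46.

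The second comparison asked whether sodium butyrate changed these factors within the disease model. Of the 8, 0 were called by edgeR's quasi-likelihood test and 0 by DESeq2, and over all genes 0.0228% were called. At an unadjusted p under 0.05, 3 of the 8 were lower in DN+NaB (Pax2, Tfap2b and Irx1), against 6.12% of all genes. The groups did not overlap for 1 of the 8, Pax2, against 4.56% of all genes. The median log2 fold change of the 8 was -0.28, against -0.02 over all genes, and 7 of 8 were below 0, against 52.8% of all genes. These genes share libraries and are not independent of each other.

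Pax2 had 57.1, 48.3, 54.1 and 47.5 CPM in DN+NaB replicates 1 to 4, and 58.1, 69.3, 64.1 and 83.4 CPM in DN replicates 1 to 4. All DN+NaB libraries lay below all DN libraries, but the nearest values of the groups were close. The log2 fold change was -0.41 ± 0.14 (95% interval -0.71 to -0.11, unadjusted p = 0.0109, edgeR adjusted p = 0.346). Against the mean of 8 markers of collecting duct principal cells, which reabsorb water and sodium, Pax2 was at -0.37 ± 0.0914 in DN+NaB and 0.10 ± 0.318 in DN, and the ranges did not overlap. Tfcp2l1 did not overlap either when set against intercalated cell markers, at 3.43 ± 0.162 in DN+NaB and 3.78 ± 0.269 in DN. Its CPM alone overlapped, and Tfcp2l1 itself differed by -0.05 ± 0.12. The 9 intercalated cell markers had a median log2 fold change of 0.28, with 1 below 0. Of them edgeR called 0 and DESeq2 1, and 3 had an unadjusted p under 0.05. The 8 principal cell markers had a median of 0.17, and 0 were called by either method. No share of all genes was computed on this scale. What part the markers have in either separation was not tested. The antisense genes 1700039E22Rik and Gm20395 overlap Pax2. The first had 0 counts in every library and the second is not among the symbols counted. Pax8, the relative of Pax2, differed by -0.23 ± 0.12 (adjusted p = 0.542), and by -0.13 without DN replicate 4 (adjusted p = 0.903).

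Tfap2b had 36.4, 28.6, 28.8 and 30.9 CPM in DN+NaB replicates 1 to 4, and 44.2, 41.1, 33.6 and 41.0 CPM in DN replicates 1 to 4. Only the highest DN+NaB library and the lowest DN library crossed (-0.36 ± 0.13, edgeR adjusted p = 0.404). Irx1 had 36.9, 35.0, 29.1 and 25.8 CPM in DN+NaB replicates 1 to 4, and its highest value lay above 2 of the DN values given above (-0.27 ± 0.13, 95% interval -0.54 to -0.0045, adjusted p = 0.499). Hnf4a, at 1496 to 2018 CPM in DN+NaB and 1410 to 2019 in DN, differed by 0.01 ± 0.13, with a 95% interval of -0.27 to 0.29. Tfcp2l1, Hnf4g and Esrrb differed by -0.05 ± 0.12, -0.30 ± 0.22 and -0.29 ± 0.24 (adjusted p = 0.910, 0.672 and 0.719), and without DN replicate 1 Hnf4g differed by -0.12. Of the 8 markers of the distal convoluted tubule and the 10 of the thick ascending limb, edgeR and DESeq2 called 0 in this comparison, with 1 of each list at an unadjusted p under 0.05.

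The third comparison set DN+NaB against NC. Of the 8, 2 were called, Irx1 and Tfap2b, both lower, against 15.6% of all genes called. The groups did not overlap for 1 of the 8, Irx1, against 27.9% of all genes. Counts of 1 or 2 among 8 genes are too small to be read as above or below these shares. This comparison shares the DN+NaB libraries with the second comparison and the NC libraries with the first, so the 3 sets of values are not independent.

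Irx1 fell to 31.7 ± 5.15 CPM in DN+NaB, against 81.2 ± 9.05 in NC (log2 fold change -1.36 ± 0.13, 95% interval -1.63 to -1.08, adjusted p = 1.3e-05). Each DN+NaB library lay below each NC library. Irx2 fell as well, to 9.79 CPM in DN+NaB, against 17.5 in NC (-0.84 ± 0.17, edgeR adjusted p = 0.00516), and edgeR called 1 of the 4 tested further Iroquois genes, where DESeq2 called 2. The thick ascending limb markers summed to 5591 to 7090 CPM in DN+NaB and 7888 to 13508 in NC, with 4 lower, 1 higher and 5 not called (median -0.59). Slc12a1, the sodium-potassium-chloride cotransporter of that segment, fell by 0.96 ± 0.21. Relative to those markers Irx1 was at -1.87 ± 0.221 in DN+NaB and -0.998 ± 0.299 in NC, and the ranges did not overlap.

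Tfap2b fell to 31.2 ± 3.65 CPM in DN+NaB, against 42.9 ± 6.54 in NC (-0.46 ± 0.13, 95% interval -0.75 to -0.17, adjusted p = 0.0317). Its NC values were 41.7, 34.2, 46.6 and 49.1 CPM, and NC replicate 2 lay below the highest DN+NaB library, so the groups overlapped. The call was kept in 10 of 16 alternatives and lost without any 1 of NC replicates 1, 3 and 4 or DN+NaB replicates 2, 3 and 4, where adjusted p ran from 0.0586 to 0.0970. Distal convoluted tubule markers did not fall with it: 3 of 8 rose, 1 fell and 4 were not called (median 0.22), and they summed to 2578 to 2943 CPM in DN+NaB and 1810 to 2451 in NC. Pvalb rose by 2.89 ± 0.26 and Slc8a1, a sodium-calcium exchanger, by 0.57 ± 0.13. Relative to those markers Tfap2b was at -2.37 ± 0.227 in DN+NaB and -1.50 ± 0.387 in NC, without overlap. Pvalb is 1 of those markers and raises their mean in DN+NaB, and its part in this separation of Tfap2b was not tested. The close relative Tfap2a, which was not called, differed by 0.20 ± 0.15 (edgeR adjusted p = 0.392).

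Esrrb was at 116, 117, 86.4 and 89.5 CPM in DN+NaB replicates 1 to 4, and 3 of the 4 NC libraries lay above them (-0.65 ± 0.24, edgeR adjusted p = 0.0842). Without NC replicate 4 it passed at -0.90 (adjusted p = 0.00123), and Pax2 also passed at -0.42 (adjusted p = 0.0483), while Tfap2b did not. With all libraries Pax2 differed by -0.30 ± 0.14 (adjusted p = 0.161). Hnf4a differed by 0.29 ± 0.13, Hnf4g by -0.45 ± 0.22, Pax8 by 0.03 ± 0.12 and Tfcp2l1 by -0.17 ± 0.12 (adjusted p = 0.159, 0.179, 0.881 and 0.371). Beside Hnf4a, the listed proximal tubule transport and metabolism genes had 3 members that rose, 2 that fell and 12 not called (median 0.10): Slc22a8, an organic anion transporter, rose by 0.80 ± 0.20 and Slc5a2, the glucose transporter of the early proximal tubule, by 0.83 ± 0.22, while Slc17a3 fell by 1.28 ± 0.17. The Slc5a2 call was lost in 4 of 16 alternatives, without DN+NaB replicate 2 or 3 or NC replicate 1 or 4 (adjusted p up to 0.0735). Of the 8 genes listed as PAX8 targets 1 fell, Slc5a3, a myo-inositol transporter (-1.54 ± 0.40, adjusted p = 0.0232), and its call was lost in 7 of 16 alternatives.

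**Figure D4:**
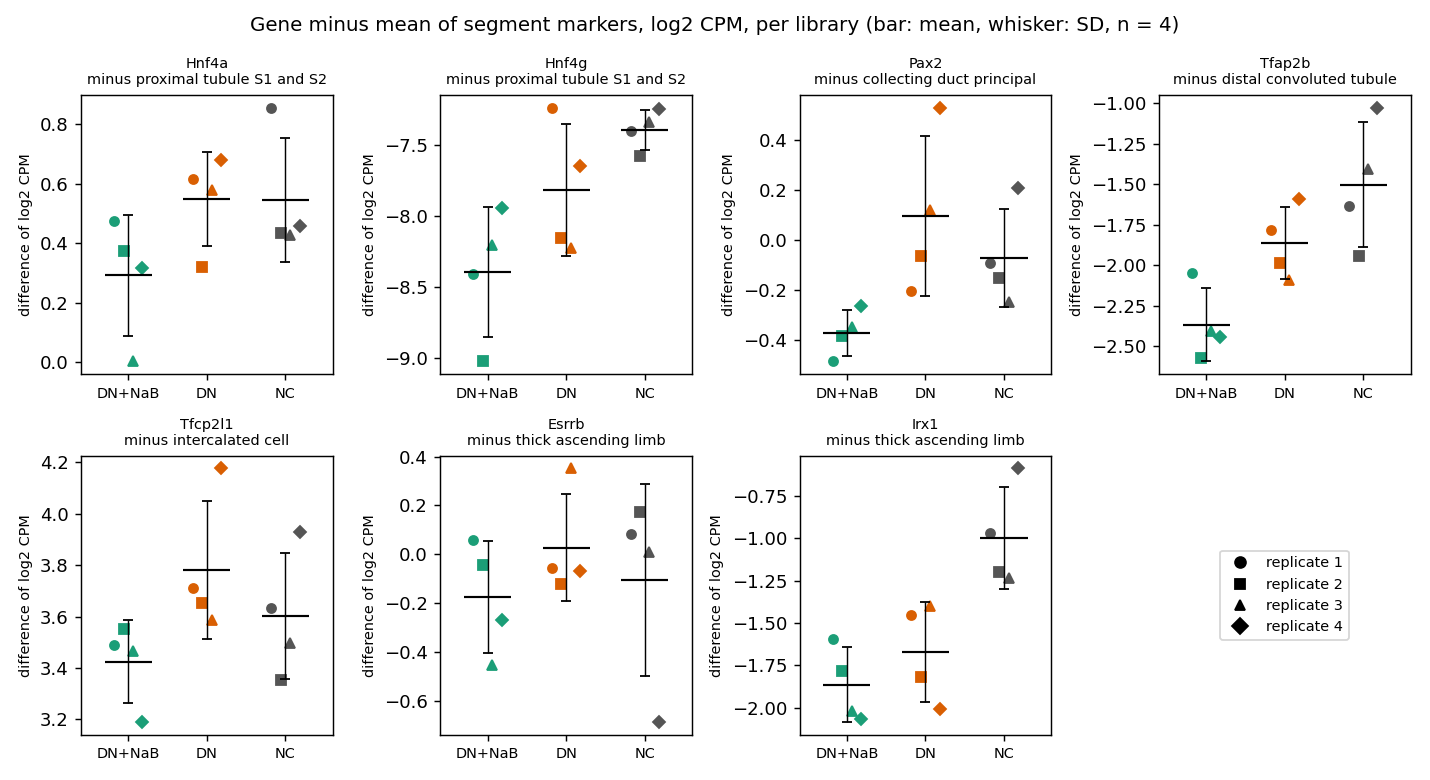
Log2 CPM of each gene minus the mean log2 CPM of the markers of the segment named above each panel (vertical axes), per library of DN+NaB, DN and NC, with the mean as a bar and the SD as a whisker (n = 4 per group). Irx1 is lower than NC in both diseased groups relative to thick ascending limb markers. On this scale Tfap2b, Pax2 and Hnf4g are lower in DN+NaB than in NC without overlap, but their CPM alone overlapped. How many of all genes would separate on this scale was not computed. The 12 convoluted tubule markers set against Hnf4g were themselves higher in DN+NaB than in NC. Their median on the log2 scale was 0.43, and 0 of them lay below 0. Hnf4g alone differed by -0.45 and did not pass the edgeR test. For Pax2 the nearest values were -0.265 in DN+NaB and -0.246 in NC. The part of the markers in these separations was not tested.

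Other nephron transcription factors gave the setting. Of 25 listed, 24 were tested, and the median log2 fold change was -0.19 in DN against NC, where 3 fell and 0 rose. Those that fell were Sim2, Osr1 and Tcf21. Sim2, a basic helix-loop-helix factor, was at 8.25 CPM in DN and 17.1 CPM in NC (-1.05 ± 0.23, edgeR adjusted p = 0.0103). Osr1 and Tcf21, both of kidney mesenchyme in development, fell by 1.23 ± 0.33 and 0.72 ± 0.21. Of 16 alternatives Osr1 lost its call in 7 and Tcf21 in 6, and DESeq2 called 5 of the 24. Beside them, 6 mesangial and fibroblast markers summed to 163 to 392 CPM in DN and 313 to 447 CPM in NC. Col1a1 and Col1a2 weigh most in the NC sum, with means of 113 and 120 CPM there and 43.3 and 57.1 in DN. Dcn was level, at 27.3 CPM in DN and 27.2 in NC. Of the 6 markers edgeR called 1, Col1a2, which was lower and lost its call in 4 of 16 alternatives. The median of the 6 was -0.21 on the log2 scale, with 4 below 0. Any part of these markers in the changes of Sim2, Osr1 and Tcf21 was not tested. In DN+NaB against NC 5 of the 24 factors fell and 1 rose. Sim2 fell by 1.47 ± 0.23, Nr1h4, the bile acid receptor FXR, by 0.71 ± 0.12 and Pou3f3, a POU-domain factor of the distal nephron, by 0.56 ± 0.12 (edgeR adjusted p = 0.000771, 0.00115 and 0.00526). Maf, a leucine zipper factor, rose by 0.73 ± 0.14 (edgeR adjusted p = 0.00360). In DN+NaB against DN 0 of the 24 were called by edgeR, 5 had an unadjusted p under 0.05 and DESeq2 called 3.

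For each of the 8 genes the 3 tested genes of most similar pattern were found by Pearson's r of log2 CPM over the 12 libraries, which share groups and depth. Irx1 was most like Reep5 (r = 0.984), Atp11a (0.979) and M6pr (0.975), and within groups, on deviations from the group means, these were 0.780, 0.607 and 0.851. Atp11a, a lipid flippase that also stood on the S3 list, fell by 1.92 ± 0.15 in DN against NC. Esrrb was most like Mrps6 (0.964), Pla1a (0.948) and Trpm6 (0.946), the last a magnesium channel of the distal convoluted tubule. Within groups these were 0.956, 0.943 and 0.941. In NC replicate 4 Esrrb was at 76.5 CPM, against 167 to 219 in the other NC libraries. Trpm6 was at 25.8 CPM there, against 42.8 to 48.0. The values of r without that library were not computed. Pax2 was most like Slco4a1 (0.940), Tuba8 (0.932) and Lpcat4 (0.922), and Pax8 most like Sphk1 (0.898), Trib3 (0.897) and Fosl2 (0.892). Tfap2b was most like Satb1 (0.915), Tgfbr3 (0.908) and Prox1 (0.903), and Tfcp2l1 most like Eaf1 (0.928), Cdk11b (0.912) and Prkar2a (0.880). For Hnf4a these were Pcid2 (0.937), Whrn (0.934) and Golga2 (0.933), and for Hnf4g they were Ctbs (0.946), Med21 (0.900) and Nova1 (0.883).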

How the data were processed

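RNA-seq of 12 mouse renal cortex libraries was analysed from 1 table of whole-number counts per gene symbol, which the authors deposited without normalization. Per the submitters' processing notes HISAT2 2.0.4 was used; the sources used here give no counter, strand setting, annotation or genome build. Every column matched 1 sample title. Genes were filtered with filterByExpr by group and scaled with TMM factors; 17530 were tested, holding at least 99.95% of each library's counts. A single model of group was fitted to all 12 libraries and tested by quasi-likelihood (edgeR 4.0.16, R 4.3.3, robust), two-sided, p-values adjusted over all tested genes, called under 0.05 with no fold limit. For genes above 1 CPM the median SE on the log2 scale was 0.166. Log2 CPM values used a prior count of 2; intervals are at 95%. DESeq2 1.42.0, RLE factors, library size alone, other filters, the 2 compared groups alone, a fit without robust estimation, the replicate number as a block and leaving out each library were alternatives. Same-numbered libraries were not taken as pairs, since the labels give no shared origin. No 2 libraries agreed within sampling noise (smallest chi-square per degree of freedom 23.6). All 8 factors are named whatever their values. Of each regulator or target list up to 4 called genes, and of each marker list up to 2, were named per comparison by smallest p, along with Esrrg and Irx2, and the 3 genes most alike each factor, leaving out predicted symbols. Other genes were chosen after their values were seen. The factors and lists were chosen with earlier results of these data known. Promoters are from RefSeq; exon lengths, gene neighbours and transcripts are from GENCODE M21, read with Biopython 1.88. Some regulators and a motif are not reported here and were left out of the lists.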

Additional observations from a re-analysis of the deposited data

Results flagged for a closer look

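Of 54 groups of 4 libraries examined for the 8 factors and other regulators that were called or named, 2 held 1 library far from the rest by Dixon's criterion, which chance gives for about 5% of groups; 0 of these were among the 8 factors. Osr1 was at 1.23 CPM in DN replicate 2, against 0.468 to 0.545 in the other DN libraries. Sim1 was at 47.8 CPM in DN replicate 4, against 13.3 to 18.7 in the other DN libraries.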

How the results depend on the processing

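Irx1 kept its direction and its call against NC under all 16 alternatives run in each comparison, with log2 fold changes of -1.18 to -1.02 in DN (adjusted p up to 0.000657) and -1.47 to -1.27 in DN+NaB (up to 0.000113). With 1 library left out, 1 to 2 of the 8 factors were called in DN against NC, the highest count without NC replicate 4, and 1 to 3 in DN+NaB against NC. With the replicate block the counts were 1, 0 and 2 in DN against NC, DN+NaB against DN and DN+NaB against NC, as without it, and it changed no call of the 8. Library size alone shifted the median of all genes by -0.0955, -0.0172 and -0.113 in these comparisons. In DN+NaB against NC Esrrb then passed (adjusted p = 0.0401), as it did with DESeq2 (0.0393). Signs turned only for differences that were not called, and the cause was not tested. Leaving out 1 library gave -0.0191 to 0.188 for Pax2 in DN against NC. In DN+NaB against DN it gave -0.0719 to 0.0998 for Hnf4a, -0.101 to 0.00597 for Tfcp2l1 and -0.133 to 0.0370 for Esrrg. In DN+NaB against NC it gave -0.0267 to 0.0830 for Pax8. With library size alone Hnf4a was at -3.46e-05 in DN+NaB against DN and Pax8 at -0.0759 in DN+NaB against NC, and with a filter of 1 CPM in 4 libraries Pax8 was at -0.00289. By deviations from group means over 5000 genes, same-numbered correlations ran from -0.415 to 0.531. Replicates 2 and 4 were most like their own number in all 3 comparisons, replicate 1 only in DN+NaB against NC and replicate 3 in none. The numbers were not used as pairs, since the labels give no shared origin. Whether some same-numbered libraries share a processing step was not tested.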
